A study of Mus musculus with 18 samples.

Results

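Ttr, Sostdc1, Aqp1 and Enpp2 are genes known for strong expression in the choroid plexus, the secretory epithelium of the brain's ventricles. They were followed in the developing mouse cochlear nucleus on oligonucleotide arrays. The members were chosen by probe set identifier, with the signals of these arrays at every age already known, so their differences between ages are a description and carry no test. Of 9 identifiers listed for the 4 genes, 8 of the 22690 probe sets in the table were members, namely 3 of Ttr, 2 of Sostdc1, 1 of Aqp1 and 2 of Enpp2. The Ttr identifier 1459737_s_at is not in the table used here. The link from identifier to gene came with that choice, since the table itself names no genes. For the same reason, other markers of the choroid plexus or of neighbouring tissue were not analysed here, and neither the label of this group nor the labelled tissue was checked against further markers.

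Cochlear nuclei were taken from C57Bl6/J mice at postnatal day 7 (P7, 3 arrays), day 14 (P14, 2 arrays) and day 21 (P21, 3 arrays). Each of the 8 arrays received total RNA pooled from 5 pups, with no other treatment in the labels. The labels do not say that every pool came from other animals, so spreads between arrays may be partly technical. Array medians lay between 98.7 and 110.5 signal units. With 2 or 3 arrays an age, precision is limited by their number.

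The choroid plexus secretes cerebrospinal fluid into the ventricles, and one of its tufts lies in the fourth ventricle and its lateral recess, beside the cochlear nucleus. Ttr encodes transthyretin, a secreted carrier of thyroxine and of retinol-binding protein. Sostdc1 encodes a secreted antagonist of bone morphogenetic proteins that also modulates Wnt signalling. Aqp1 encodes a water channel of the epithelium's ventricular face, and Enpp2 encodes autotaxin, the secreted enzyme that makes lysophosphatidic acid. Enpp2 is also made by oligodendrocytes, the myelinating cells. In tissue RNA, fewer cells of a type and less RNA per cell cannot be told apart. The amount of choroid plexus carried over at dissection can also differ between pools, and its part in the values below was not tested.

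Ttr was bright at P7 and P14 and far lower on every P21 array. Probe set 1451580_a_at had signals of 7094, 6245 and 11711 at P7, 12576 and 7142 at P14, and 1704, 346 and 173 at P21. The P7 and P14 arrays overlapped, while all P21 arrays lay below all earlier ones. The values of 11711 on P7 replicate 3 and 12576 on P14 replicate 1 were the highest of any probe set on those arrays, so a ceiling of the scale could not be checked there. Probe set 1454608_x_at had 6969, 7632 and 8813 at P7, 8940 and 6250 at P14, and 2492, 747 and 301 at P21. Probe set 1455913_x_at had 4812, 4879 and 6687 at P7, 6864 and 4091 at P14, and 1189, 282 and 157 at P21. All 3 probe sets thus ranked the P21 arrays alike, with replicate 1 highest and replicate 3 lowest.

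The signals of Ttr at P21 averaged 741 ± 839 for 1451580_a_at, against 9859 ± 3842 at P14 and 8350 ± 2942 at P7 (SD, n = 3, 2 and 3). On the log2(signal + 12.5) scale, which is used for all log2 differences here, P21 differed from P14 by -4.29 (SE 0.72), -3.15 (SE 0.62) and -3.76 (SE 0.62) for 1451580_a_at, 1454608_x_at and 1455913_x_at. Against P7 the differences were -4.05, -3.21 and -3.79 in the same order. These were among the 17 most negative differences of 15296 probe sets tested in each comparison, whose median was 0.03 for P21 against P14 and -0.02 for P21 against P7. Between P14 and P7 the Ttr differences were 0.24, -0.06 and -0.03, each smaller than its SE of 0.62 to 0.72. The size of the P21 difference depended on which probe set was read, and 1454608_x_at gave the smallest in both comparisons. Identifiers ending in _x_at mark probe sets whose probes may also hybridise to other transcripts.

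Sostdc1 was measurable at P7 and P14 and was within the background range on all P21 arrays. Probe set 1449340_at had signals of 249, 211 and 896 at P7, 556 and 85.5 at P14, and 5.1, 5.8 and 2.3 at P21. Probe set 1460250_at had 78.4, 81.0 and 450 at P7, 463 and 35.3 at P14, and 3.8, 2.8 and 6.0 at P21. In both, P7 replicate 3 and P14 replicate 1 were the high arrays, and P14 replicate 2 lay below every P7 array. The background range was taken from probe sets for bacterial transcripts that were not bright on the array in question. Their highest signal lay between 17.6 and 49.1 across the arrays, and between 30.9 and 46.0 at P21.

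With the P21 arrays set at this highest background signal, Sostdc1 was at least 5.65-fold lower at P21 than at P14 by 1449340_at and at least 3.31-fold lower by 1460250_at. Against P7 it was at least 9.35-fold and at least 3.68-fold lower. These bounds compare geometric means over the arrays of an age and need not hold for each array. P14 replicate 2 alone had 85.5 for 1449340_at and 35.3 for 1460250_at, against a P21 mean of 38.6 with the background put in. For 1460250_at no fall from that array is therefore bounded, and its bound against P14 rests on P14 replicate 1. The measured geometric means were 4.1 and 4.0 at P21, against 218 and 128 at P14 and 361 and 142 at P7. The log2 differences between P21 and P14 were -3.81 (SE 0.70) for 1449340_at and -3.18 (SE 0.88) for 1460250_at, and no bound should be read from them. Between P14 and P7 the mean difference over both probe sets was -0.37. It was -1.83 without P14 replicate 1, 1.09 without P14 replicate 2 and 0.34 without P7 replicate 3, so its direction depended on single arrays. Without P14 replicate 1, the difference between P21 and P14 was -2.03, against -3.49 with all arrays, and without P14 replicate 2 it was -4.96. The gene lies on mouse chromosome 12 at 36314169 to 36318452 in GRCm38.p6, by RefSeq.

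Aqp1, read by 1 probe set, 1416203_at, had signals of 128, 100 and 813 at P7, 390 and 81.0 at P14, and 32.2, 45.5 and 36.4 at P21. P7 replicate 3 and P14 replicate 1 were again the high arrays, and all P21 arrays lay below all earlier ones. Of the P21 arrays, 1 was within the background range and the others were close to it. The mean was 38.0 ± 6.80 at P21, against 235 ± 218 at P14 and 347 ± 404 at P7 (SD, n = 3, 2 and 3). At P7 and P14 the SD was close to or above the mean. P21 differed from P14 by -1.95 (SE 0.78) and from P7 by -2.23 (SE 0.70) on the log2 scale. Without P14 replicate 1 the difference from P14 was -0.90, and without P7 replicate 3 the difference from P7 was -1.32. P14 differed from P7 by -0.28 (SE 0.78), and by 0.63 without P7 replicate 3 and -1.33 without P14 replicate 1.

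Aqp1 lies on mouse chromosome 6 at 55336299 to 55348555 in GRCm38.p6, by RefSeq. Of the 4 genes, 1 has an entry in the RefSeq promoter table used here. The 250 bases before the annotated start of Aqp1, chr6:55336049-55336298 on the + strand, are shown since no other member gene has an entry. A link between this window and the signals was not tested. Capitals mark the only match, on either strand, to the GC-box letters GGGCGG, whose first base lies 190 bases before the start.

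Aqp1 upstream: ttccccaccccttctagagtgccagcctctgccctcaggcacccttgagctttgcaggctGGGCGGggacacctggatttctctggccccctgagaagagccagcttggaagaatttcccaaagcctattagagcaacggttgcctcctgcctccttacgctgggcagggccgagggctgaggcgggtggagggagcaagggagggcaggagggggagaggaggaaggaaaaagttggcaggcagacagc

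That motif is found on either strand in 32.7% of the 32851 windows of this length in the table. The TATA-box letters TATAAA (in 12.4% of windows) were not matched in the Aqp1 window. Neither were the letters CCAAT (33.8% of windows), nor the letters TAATCC (6.25%), which are bound by homeodomain proteins of the Otx family. The window has a GC content of 62%, where the median of all windows is 52.4%.

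The Enpp2 probe sets did not follow one course. Probe set 1448136_at had signals of 948, 1011 and 3468 at P7, 7778 and 3624 at P14, and 2152, 2102 and 1765 at P21. Both P14 arrays lay above all other arrays, while P7 and P21 overlapped because of P7 replicate 3. Probe set 1415894_at had 467, 343 and 417 at P7, 548 and 366 at P14, and 436, 593 and 341 at P21. Its ages overlapped throughout, and its log2 differences were between -0.01 and 0.14, all smaller than their SE of 0.21 to 0.23.

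For 1448136_at, P14 differed from P7 by 1.82 (SE 0.49) and P21 from P14 by -1.40 (SE 0.49). Over all tested probe sets 94 had a higher value in the first comparison and 27 a lower one in the second. P21 differed from P7 by 0.42 (SE 0.44), and by 1.02 without P7 replicate 3. Without P14 replicate 1 the P14 value against P7 was 1.27 and the P21 value against P14 was -0.86. Without both P7 replicate 3 and P14 replicate 1, these were 1.88 and -0.86. The P21 arrays of this probe set spanned only a 1.22-fold range, against 2.15-fold at P14 and 3.66-fold at P7. Enpp2 lies on mouse chromosome 15 at 54838901 to 54952789 in GRCm38.p6, by RefSeq, and which of its transcripts each probe set reads was not analysed here.

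**Figure D1:**
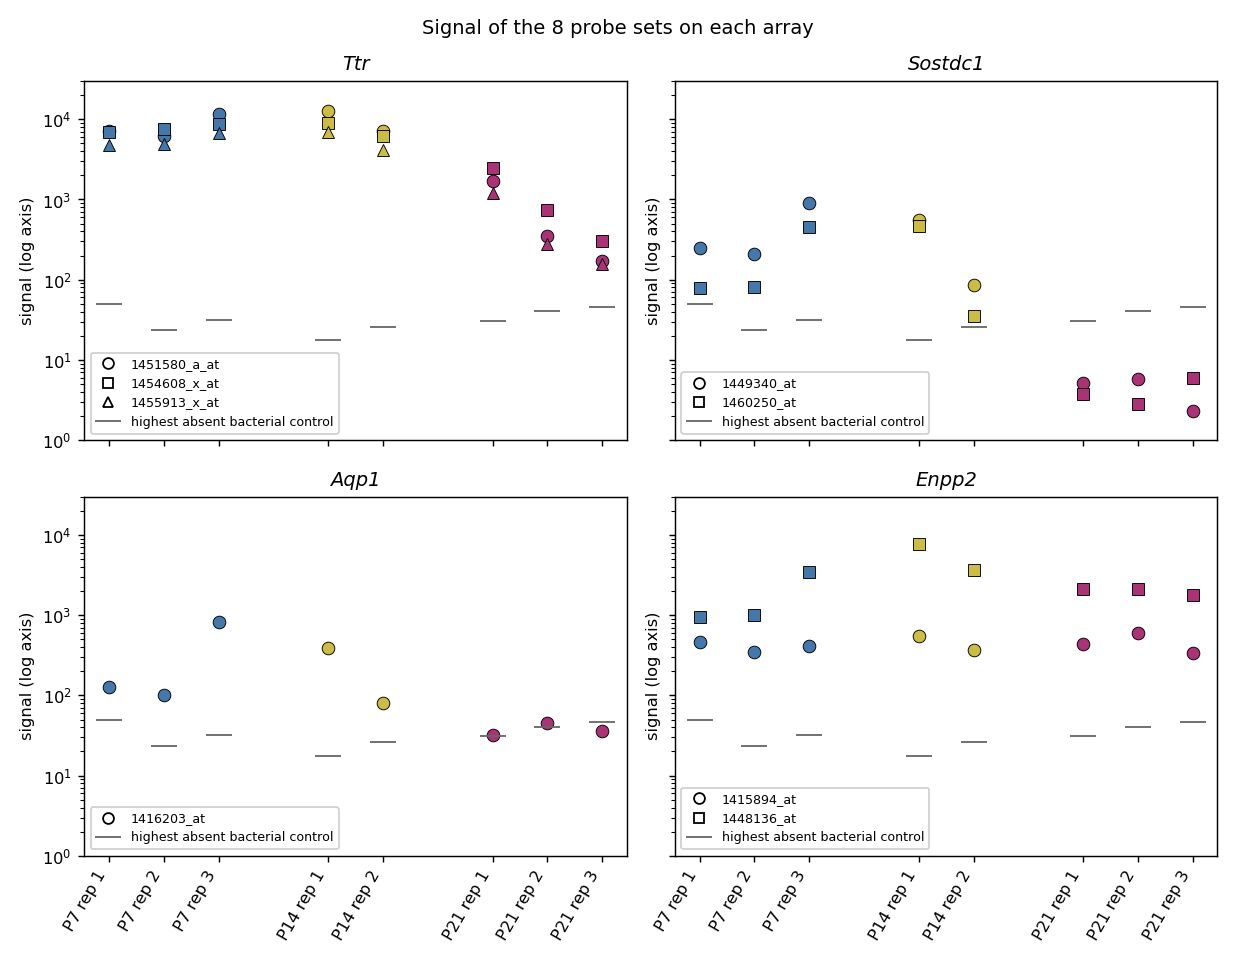
Signal of each probe set (log axis) on the 8 arrays, in 1 panel per gene, ordered by age, with grey dashes for the highest signal among bacterial control probe sets whose transcript was not bright on that array. Ttr fell to 157 to 2492 on the P21 arrays, Sostdc1 lay at 2.3 to 6.0 there, and 1448136_at of Enpp2 was highest at P14 with 7778 and 3624.

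Side by side, P14 and P7 overlapped in all probe sets of Ttr, Sostdc1 and Aqp1, and their probe sets differed in which of these ages had the higher mean signal. It was P14 for 1451580_a_at and 1455913_x_at of Ttr and 1460250_at of Sostdc1, and P7 for 1454608_x_at of Ttr, 1449340_at of Sostdc1 and Aqp1. Only 1448136_at of Enpp2 had both P14 arrays above all P7 arrays, which 24.3% of tested probe sets had, and 0 of 8 members had both P14 arrays below all P7 arrays, which 34.6% had. All P21 arrays lay below both P14 arrays in 7 of the 8 members, where 16.8% of tested probe sets did, and below all P7 arrays in 6 of 8, where 27.4% did. All P21 arrays lay above all P7 arrays in 0 of 8, where 22.1% did. The members were chosen with these signals known, so nothing is read from those counts. With limma and Benjamini-Hochberg adjustment at 0.05, 29.6% of tested probe sets differed between P14 and P7, 2.05% between P21 and P14 and 38.6% between P21 and P7. These shares describe the whole table, and no member's p is given. The comparisons share arrays (P14 arrays enter the comparisons with P7 and with P21, for example), so the members' values in them are not independent of each other.

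**Figure D2:**
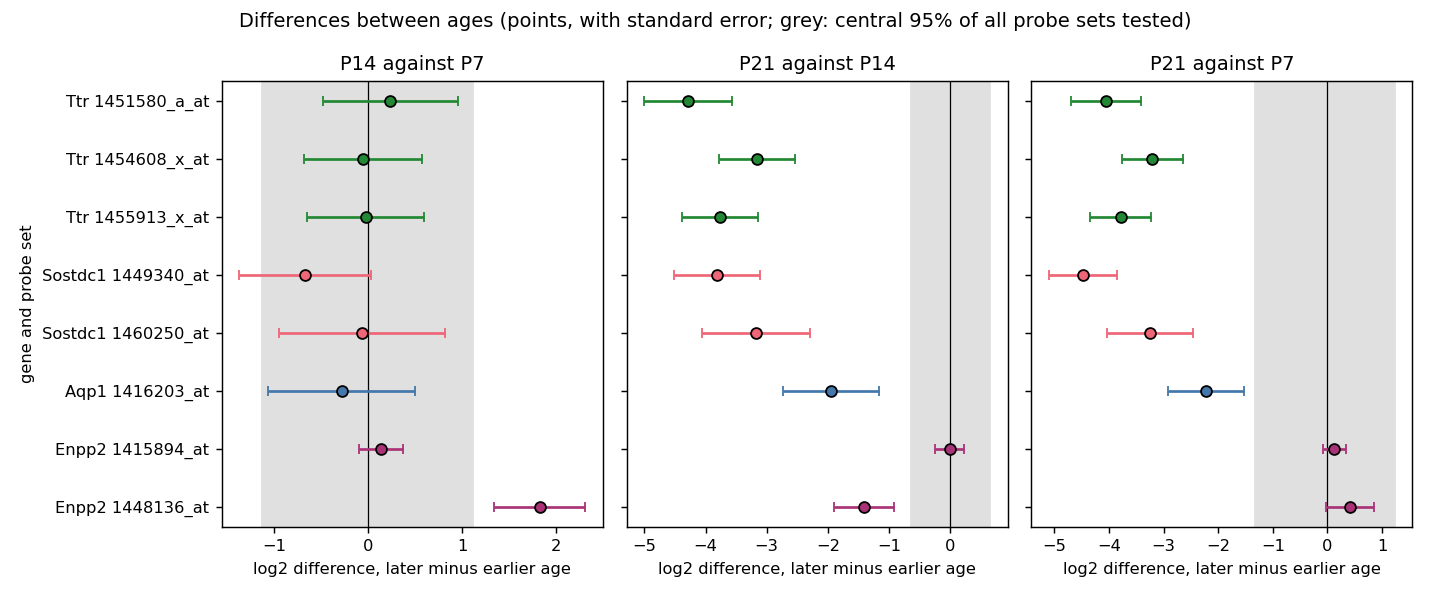
Log2 differences of the 8 probe sets for P14 against P7, P21 against P14 and P21 against P7, with standard errors from limma and, in grey, the central 95% of all probe sets tested. Ttr, Sostdc1 and Aqp1 lie left of the grey band in both P21 comparisons (-4.48 to -1.95). Probe set 1448136_at of Enpp2 lies right of it for P14 against P7 (1.82) and left of it for P21 against P14 (-1.40).

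The members also differed between arrays of one age. At P7, replicate 3 exceeded the mean of replicates 1 and 2 by 2.72 for Aqp1, by 1.91 and 2.33 for 1449340_at and 1460250_at of Sostdc1, and by 1.81 for 1448136_at of Enpp2. These 4 probe sets ranked 5, 14, 9 and 18 of the 15296 tested by that difference. At P14, replicate 1 exceeded replicate 2 by 2.10 for Aqp1, by 2.54 and 3.31 for 1449340_at and 1460250_at, and by 1.10 for 1448136_at. Their ranks were 13, 5, 1 and 82. The same arrays were thus high for Sostdc1 and Aqp1, which were low at P21, and for 1448136_at, which was highest at P14.

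Ttr had smaller steps in the same direction. Its 3 probe sets exceeded the other P7 arrays on replicate 3 by 0.81, 0.27 and 0.46 (1451580_a_at, 1454608_x_at and 1455913_x_at), and on P14 replicate 1 exceeded replicate 2 by 0.82, 0.52 and 0.75. In the same order they ranked 144, 1648 and 567 of 15296 by the P7 difference, and 163, 511 and 223 by the P14 difference. For 1451580_a_at, the highest signal on both of these arrays, compression at the top of the scale was not tested. Probe set 1415894_at of Enpp2 did not show it at P7, at 0.06, and differed by 0.57 at P14. A step of at least 1 on the log2 scale, on P7 replicate 3 over both other arrays and on P14 replicate 1 over replicate 2, was found for 28 probe sets, which is 0.183% of those tested. They included 4 of the 8 members, with 1451580_a_at just outside at 0.72 and 0.82, and 1448136_at just inside at 1.77 and 1.10. The step of 1 was set after these values had been seen.

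The other combinations were counted too. A step of 1 up on P7 replicate 3 with P14 replicate 2 the higher was found for 2 probe sets. A step of 1 down on P7 replicate 3, below both other P7 arrays, went with P14 replicate 1 the higher in 2 and with P14 replicate 2 the higher in 0. None of these was a member. Taken alone, 48 probe sets had the step up on P7 replicate 3 and 9 had it down, while 99 had it with P14 replicate 1 the higher and 53 with P14 replicate 2 the higher.

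At P21 another array stood out, and among the 4 genes it did so in Ttr. The label of this array, P21 replicate 1, counts 2 replicates at its age, where the labels of the other P21 arrays count 3. P21 replicate 1 exceeded the mean of replicates 2 and 3 by 2.74 for 1451580_a_at, 2.43 for 1455913_x_at and 2.36 for 1454608_x_at, the 3 largest such differences among all 15296 probe sets. The highest Ttr signal at P21 was between 7.56 and 9.85 times the lowest. On the same array Aqp1 differed by -0.25, the Sostdc1 probe sets by 0.10 and -0.05, and the Enpp2 probe sets by 0.16 (1448136_at) and -0.05 (1415894_at). Sostdc1 and Aqp1 were at or near background on all P21 arrays, so a difference within the background range could not have been seen in them. Only a rise clearly above that range could have been seen. Whether a rise in proportion to that of Ttr would have reached it was not tested, so these values cannot tell if the rise was shared. On P21 replicate 1, where the highest background signal was 30.9, the Sostdc1 signals were 5.1 and 3.8 and that of Aqp1 was 32.2. A step of at least 1 on P21 replicate 1 over both others was found for 26 probe sets (0.17%), among them the 3 of Ttr. Without P21 replicate 1, the mean Ttr difference was -4.57 against P14 and -4.52 against P7, where all arrays gave -3.74 and -3.68. Without P21 replicate 3, the array with the lowest Ttr signals, it was -3.07 against P14 and -3.01 against P7.

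**Figure D3:**
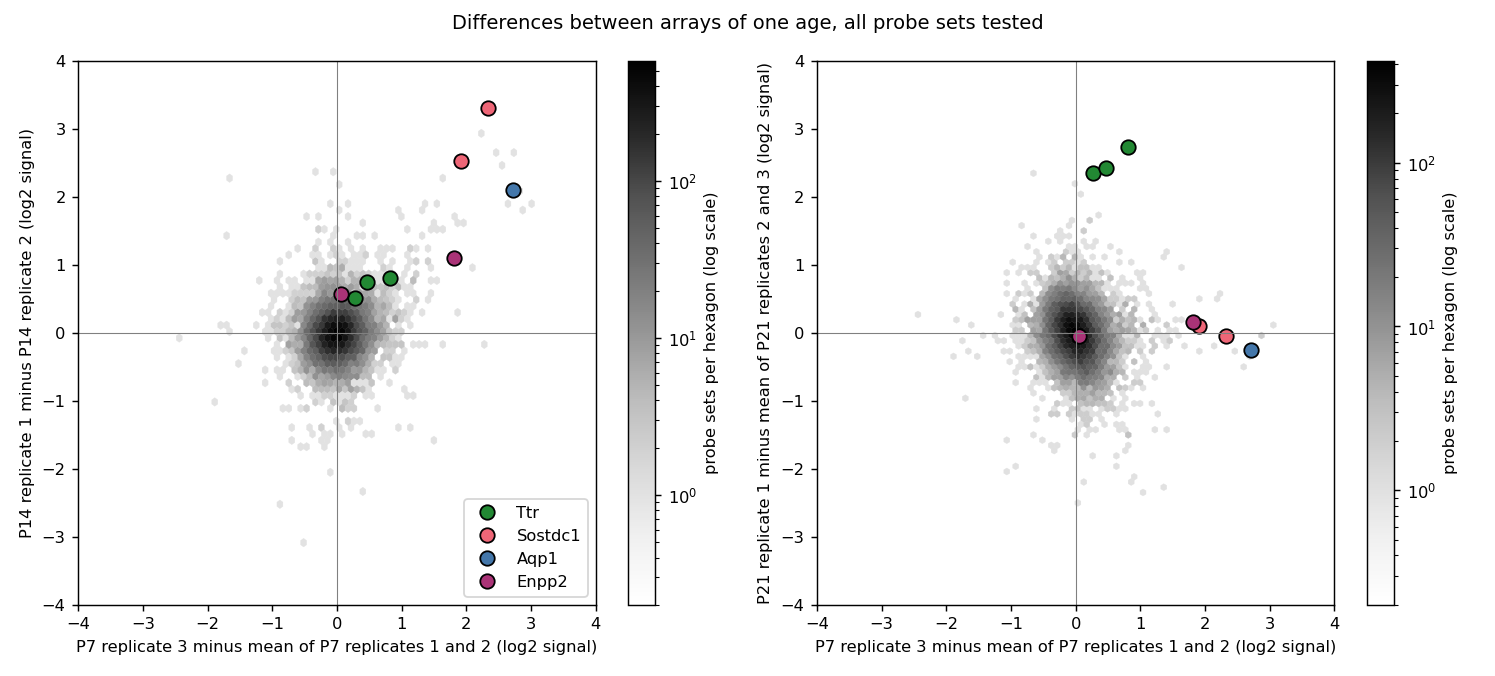
Differences in log2 signal between arrays of one age for all probe sets tested (grey hexagons) and the members (coloured), with P7 replicate 3 against the other P7 arrays on both horizontal axes, and P14 replicate 1 against replicate 2 (left) or P21 replicate 1 against the other P21 arrays (right) on the vertical axes. Sostdc1, Aqp1 and 1448136_at of Enpp2 lie far up and right in the left panel (1.10 to 3.31 upward), and the Ttr probe sets lie at the top of the right panel (2.36 to 2.74).

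The controls on the arrays were read for the same arrays. The ratio of the 3' to the 5' probe set, a sign of intact RNA, was 0.85 for Gapdh on P7 replicate 3, against 0.90 and 0.82 on replicates 1 and 2, and was 0.78 and 0.79 on the P14 arrays. For beta-actin it lay between 1.01 and 1.17 on all 8 arrays. The bright bacterial control was lys on P7 replicate 3 and dap on the other P7 arrays, but dap on P14 replicate 1 and lys on P14 replicate 2, so the arrays on which the 3 genes were high did not share a control. On P21 replicate 1 it was lys, which no other P21 array had bright, and its median signal was 643, against 3981 to 8772 for the bright control of the other arrays. The 5' probe set of 18S ribosomal RNA was 284 on P7 replicate 3 against 155 and 3530 on the other P7 arrays, and 43.6 on P14 replicate 1 against 38.6 on replicate 2. On P21 replicate 1 it was 1197, against 944 and 6137 on replicates 2 and 3. The part of these control readings in the differences between arrays was not tested.

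**Figure D4:**
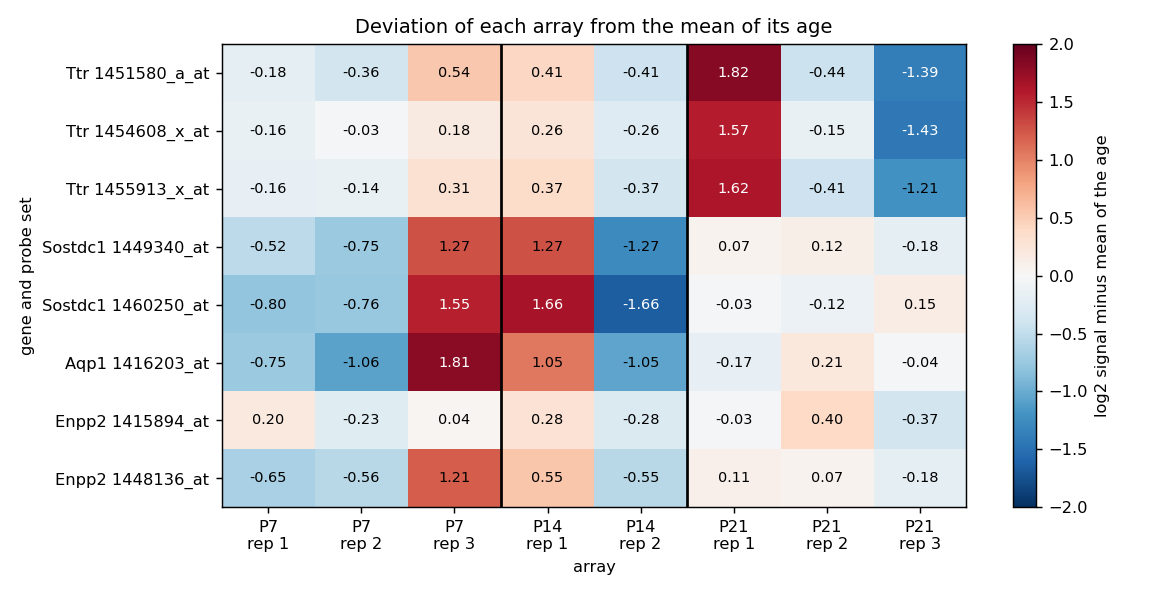
Log2 signal of each probe set on each array minus the mean of that age (colour and number), with lines between P7, P14 and P21. Sostdc1, Aqp1 and 1448136_at of Enpp2 are above their age's mean on P7 replicate 3 and P14 replicate 1 (0.55 to 1.81), and Ttr stands out on P21 replicate 1 (1.57 to 1.82).

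Correlations across the 8 arrays are given without a test, since arrays of one age share that age, and low signals carry more noise. After the mean of each age had been taken away, probe sets of Sostdc1, Aqp1 and 1448136_at of Enpp2 correlated between genes at r = 0.90 to 0.97 over 5 pairs. All of these were high on P7 replicate 3 and P14 replicate 1, so the values restate that pattern. The other Enpp2 probe set, 1415894_at, gave 0.40 to 0.53 with Sostdc1 and 0.43 with Aqp1. Ttr gave 0.16 to 0.40 with Sostdc1, 0.13 to 0.30 with Aqp1 and 0.28 to 0.44 with 1448136_at. Little can be read from the Ttr values with Sostdc1 and Aqp1. Ttr deviated most on the P21 arrays (by up to 1.82), where Sostdc1 and Aqp1 were at or near background. Probe set 1448136_at was far above background there, with 2152, 2102 and 1765, and deviated by 0.11, 0.07 and -0.18. With the ages left in, Ttr correlated with Sostdc1 at r = 0.78 to 0.90 and with Aqp1 at 0.69 to 0.75, and with 1448136_at at 0.21 to 0.29. Within a gene, the Ttr probe sets correlated at 0.97 to 0.99 and the Sostdc1 probe sets at 0.98 after the age means had been taken away, but those of Enpp2 at 0.36.

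Likeness of level over all 8 arrays was also ranked among the probe sets whose log2 signal had an SD of at least 0.5. By likeness to Aqp1, Sostdc1 probe set 1460250_at ranked 9 of 2057 (r = 0.97), and 1449340_at ranked 22 (r = 0.93). By likeness to the mean of Sostdc1, Aqp1 ranked 10 of 2056 (r = 0.95), and the Ttr probe sets ranked 55 to 83 (r = 0.83 to 0.87). By likeness to the mean of Ttr, 1449340_at of Sostdc1 ranked 26 of 2055 (r = 0.89) and Aqp1 ranked 247 (r = 0.73).

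The probe sets most like each gene outside the members are not named in the table used here. For Aqp1 they were 1449421_a_at and 1424938_at (r = 0.99 each). The first had 88.9, 60 and 605 at P7, 389 and 80.7 at P14, and 21.2, 23.2 and 22.4 at P21, so it was high on the same arrays as Aqp1. For Sostdc1 they were 1423261_at (r = 0.98) and 1454159_a_at (r = 0.97). For Ttr they were 1439407_x_at and 1449588_at (r = 0.95 each). Of these, 1449588_at had 136, 88.8 and 297 at P7, 295 and 102 at P14, and 22.5, 3.0 and 4.7 at P21, with P21 replicate 1 again the highest of its age, though all 3 lay within the background range. For Enpp2, the mean of the 2 discordant probe sets was closest to 1421374_a_at (r = 0.94) and 1416368_at (r = 0.90).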

How the data were processed

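The deposited oligonucleotide table holds 1 scaled intensity per probe set and array, and the submitters' processing notes name GCOS without a version. Its settings are not given in the sources used here. Each array's 2%-trimmed mean (2% taken from each end) was close to 250.1 as deposited, and values were brought to exactly that level. Apart from 64 controls, 15296 of 22690 probe sets with a mean of at least 50.0 were tested, the 8 members included. limma 3.58.1 in R 4.3.3 (lmFit, eBayes with trend) was fitted to log2(signal + 12.5) of all 8 arrays with a mean per age, two-sided, with Benjamini-Hochberg adjustment. SEs are limma's. On simulated data with 200 changed probe sets of 15296, 80% of log2 changes of 1 and 100% of changes of 2 were recovered for P21 against P14. The simulated noise was independent between probe sets, with limma's own variances and no deviations shared by an array. These shares therefore check the code and need not hold for the real arrays.

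Members and gene lists were chosen with earlier results of these data known. The 12 gene lists could not be used, since 0 probe set identifiers matched the gene table, and the rule for naming the probe sets most like a gene was applied to identifiers and shortened to 2 per gene. The 5 hybridisations of the spotted cDNA array were not used, since their spots are not paired with genes here. Alternatives changed the pseudocount, scaling, filter, trend and arrays, and added the replicate number as a block. Deviations of same-numbered arrays of different ages correlated at -0.04 to 0.28, and those of differently numbered arrays at -0.27 to 0.22. With 2 or 3 arrays an age, these values cannot decide whether array numbers pair the samples. The main fit therefore used no pairing.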

Additional observations from a re-analysis of the deposited data

How the results depend on the processing

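The mean log2 differences of the 4 genes were recomputed under other pseudocounts, scalings, a replicate block and with arrays left out. In 161 of 168 alternative values the difference moved by less than 1 SD between arrays, and the other 7 all belonged to Sostdc1, 1 of them with its direction turned. Many of the 168 could not move, such as those without an array of an age outside the comparison. The SD also includes the arrays that stood out. Aqp1 for P14 against P7 thus stayed within it, at -0.28 with all arrays, 0.77 without P14 replicate 2 and -1.33 without P14 replicate 1. Differences between P14 and P7 near 0, of Ttr, Sostdc1 and Aqp1, took either sign as arrays were left out. The P21 difference of Sostdc1 was -2.17 against P14 and -2.43 against P7 with a pseudocount of 50.0, where the cause is that its P21 signals lie far below that value. With 1 array left out, its difference between P21 and P14 ran from -4.96 to -2.03, and it was -2.03 with both P7 replicate 3 and P14 replicate 1 left out, a setting chosen after seeing the data. Its difference between P14 and P7 ran from -1.83 to 1.09, with 1449340_at from -1.94 to 0.60 and 1460250_at from -1.72 to 1.59. Of all probe sets, the limma count between P14 and P7 ran from 2378 to 4771 with 1 array left out. Between P21 and P14 it ran from 0 without P14 replicate 2 (1757 at an unadjusted limma p under 0.05, where the lone P14 array is assumed to vary like the others) to 463, and was 313 with all arrays, 109 with no filter and 121 with no trend. The cause of the last 2 was not tested. With the replicate block 4406 probe sets differed between P14 and P7, 323 between P21 and P14 and 5966 between P21 and P7, so the block moved no count by more than 1.5 times. Same-numbered arrays correlated best with their own number in 3 of 8 cases. The 28 probe sets high on P7 replicate 3 and P14 replicate 1 became 19 to 39 under other pseudocounts, scalings and filters. The 26 high on P21 replicate 1 became 13 with the larger pseudocount, 16 with a stricter filter and 56 with none. All of these counts are of dim and bright probe sets together, and dim ones are the least precise. The comparison on cDNA arrays was not run.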
